A study of Homo sapiens with 40 samples.

Results

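Long noncoding RNA (lncRNA) genes that lie apart from protein-coding genes have promoters whose accessibility can be read without the signal of a coding neighbour. Of 71600 consensus regions, 2210 were taken as lncRNA promoters. These regions had a midpoint within 1 kb of a transcript start of a gene that GENCODE release 44 types as lncRNA, and every transcript start of a protein-coding gene was more than 5 kb away. A consensus region is a stretch on chromosomes 1 to 22 or X in which ATAC-seq peaks of at least 2 of the 40 libraries overlapped by 1 bp or more. ATAC-seq marks open chromatin by the sites at which a transposase inserts sequencing adapters. A library was open at a region where its own peak list held a peak there, and a region with no peak was not shown to be closed.

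BT474 is an established breast ductal carcinoma line with amplified HER2, and BT474R is a single clone derived from it that grew in the anti-HER2 antibody trastuzumab. Cells of both lines were serum-starved and then given epidermal growth factor (EGF, which binds EGFR), heregulin (HRG, which binds HER3 and HER4) or water as the vehicle (control) for 1, 12 or 24 h. Untreated cells were taken at 0 h (baseline). Each of the 20 groups, such as EGF-BT474 at 1 h or control-BT474R at 24 h, had 2 libraries, and nothing in the labels says whether these came from separate cultures, so p-values measure the spread between these libraries. One clone stands for resistance, so a difference between BT474R and BT474 is a difference between these cell stocks. The libraries held 32479 to 56846 peaks, the fewest in control-BT474R at 12 h. A list of peaks holds no number of reads, and the read depth was unknown. Peaks at the promoters of all 8 luminal epithelial markers examined (GATA3, FOXA1, KRT8, KRT18, ERBB2, EPCAM, CDH1 and TFAP2C) were present in 20 of 20 libraries of each line. The leukocyte markers PTPRC and CD3E, the endothelial marker PECAM1 and the fibroblast marker DCN had no peak in any library. Of the other endothelial and fibroblast markers, VWF, CDH5 and COL1A1 had a peak in 20 of 20 libraries of each line and PDGFRB in 12 BT474 libraries.

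A lncRNA is transcribed by RNA polymerase II from a promoter built much like that of a coding gene, but it is not translated. Some lncRNAs scaffold nuclear bodies or chromatin, some serve as host transcripts from which small nucleolar RNAs or miRNAs are cut, and for others the act of transcription or the DNA element itself is what acts on a neighbour. Many lncRNA promoters hold fewer CpG dinucleotides than coding promoters and share features with enhancers, and their use differs more between cell types.

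The sequences on which the results turn are shown as windows of 201 bases around the summit of the strongest peak, on the plus strand of hg38, read from the reference genome. Capitals mark matches, on either strand, to any of 12 short motifs that were searched, which are spelled out with their shares below. The first windows belong to regions gained with both ligands in BT474. They lie at chr15:90660586-90660786 and chr1:207818998-207819198.
LINC01585: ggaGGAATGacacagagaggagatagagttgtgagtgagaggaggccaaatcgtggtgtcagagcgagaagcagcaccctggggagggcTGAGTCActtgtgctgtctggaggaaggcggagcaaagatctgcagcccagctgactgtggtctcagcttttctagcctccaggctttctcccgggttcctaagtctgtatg
MIR29B2CHG: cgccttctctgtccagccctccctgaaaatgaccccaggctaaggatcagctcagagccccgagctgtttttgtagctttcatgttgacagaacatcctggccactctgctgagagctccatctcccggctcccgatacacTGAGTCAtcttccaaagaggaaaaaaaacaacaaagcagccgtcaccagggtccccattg

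LINC01585 and MIR29B2CHG held 1 copy each of the AP-1 motif TGANTCA, which FOS and JUN proteins bind. The next window, of LASTR at chr10:5632504-5632704, was gained with both ligands in BT474R and also held 1 AP-1 motif.
LASTR: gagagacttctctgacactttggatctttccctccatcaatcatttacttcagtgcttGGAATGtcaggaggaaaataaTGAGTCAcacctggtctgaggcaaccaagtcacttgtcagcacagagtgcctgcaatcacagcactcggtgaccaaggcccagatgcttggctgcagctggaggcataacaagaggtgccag

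Windows of regions that were open in every library of 1 line and none of the other are shown for FIRRE (chrX:131830603-131830803) and LINC03040 (chr6:44000358-44000558), open in BT474R, and for ENSG00000258216 (chr12:89919594-89919794) and ZNF790-AS1 (chr19:36797343-36797543), open in BT474. None of these 4 held an AP-1 motif. ZNF790-AS1 had the ETS motif and the CCAAT box, FIRRE the SP/KLF motif and ENSG00000258216 the GRHL motif.
FIRRE: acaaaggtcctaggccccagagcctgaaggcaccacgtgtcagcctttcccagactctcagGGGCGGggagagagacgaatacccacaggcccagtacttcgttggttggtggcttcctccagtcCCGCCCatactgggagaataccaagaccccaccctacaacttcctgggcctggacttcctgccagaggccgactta
LINC03040: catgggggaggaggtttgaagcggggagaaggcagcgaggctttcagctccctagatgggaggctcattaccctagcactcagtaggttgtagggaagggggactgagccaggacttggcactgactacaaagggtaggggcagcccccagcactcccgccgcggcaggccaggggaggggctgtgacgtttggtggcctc
ENSG00000258216: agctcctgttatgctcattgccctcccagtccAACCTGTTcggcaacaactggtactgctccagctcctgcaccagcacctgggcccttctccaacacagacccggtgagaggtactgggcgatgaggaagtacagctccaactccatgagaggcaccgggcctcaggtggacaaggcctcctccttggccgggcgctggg
ZNF790-AS1: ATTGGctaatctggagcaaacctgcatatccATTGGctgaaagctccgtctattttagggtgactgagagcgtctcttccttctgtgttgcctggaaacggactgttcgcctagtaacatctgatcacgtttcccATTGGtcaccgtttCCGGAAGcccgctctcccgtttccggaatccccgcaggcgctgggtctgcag

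Regions open in all 40 libraries are represented by NORAD (chr20:36050908-36051108) and MIR17HG (chr13:91347584-91347784), whose windows held 18 and 24 CpG dinucleotides against 1 in that of LASTR.
NORAD: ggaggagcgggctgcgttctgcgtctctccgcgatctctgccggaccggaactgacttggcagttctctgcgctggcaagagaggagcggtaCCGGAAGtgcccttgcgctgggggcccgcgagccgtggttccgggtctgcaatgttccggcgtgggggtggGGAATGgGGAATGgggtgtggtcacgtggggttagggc
MIR17HG: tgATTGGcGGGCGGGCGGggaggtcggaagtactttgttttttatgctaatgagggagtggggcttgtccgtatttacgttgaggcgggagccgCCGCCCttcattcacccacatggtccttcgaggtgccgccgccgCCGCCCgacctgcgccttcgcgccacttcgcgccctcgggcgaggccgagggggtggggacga

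The members were first set beside coding promoters and distal regions, to place them in the whole set. The lncRNA promoters were open in a median of 37 of 40 libraries. Coding promoters, with a midpoint within 1 kb of a coding start, were open in a median of 40, and distal regions, farther than 1 kb from lncRNA starts and 5 kb from coding starts, in a median of 22. Peaks were present in all 40 libraries at 949 lncRNA promoters (42.9%), against 63.8% of 17017 coding promoters and 24.7% of 41852 distal regions. At the other end, 172 (7.78%) were open in 4 libraries or fewer. The median width was 644 bp, between 1023 bp for coding promoters and 471 bp for distal regions. In libraries, widths and shares alike, the members fell between the other groups.

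**Figure D1:**
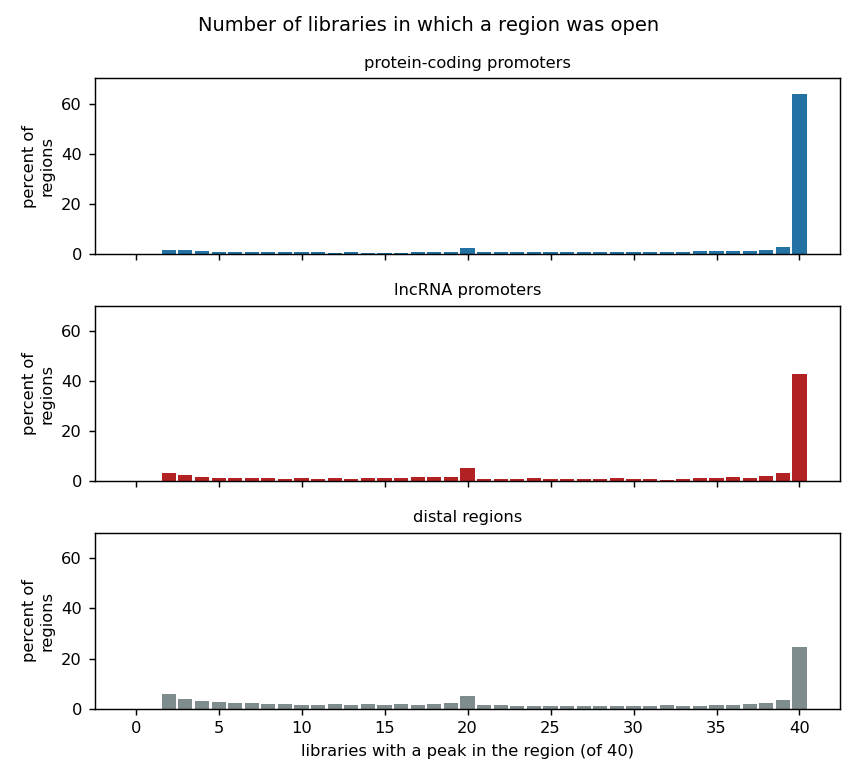
Share of regions (y axis, percent) by the number of libraries with a peak (x axis, of 40) for 17017 coding promoters, 2210 lncRNA promoters and 41852 distal regions. Bars at 40 reach 63.8%, 42.9% and 24.7%, and a smaller rise at 20 holds regions open in about as many libraries as 1 line has.

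By the name of the nearest start, the 2210 members belonged to 1935 genes, of which 1718 had 1 region and 217 had more. Genes known by an identifier alone held 1261 regions (57.1%), intergenic LINC genes 490 (22.2%), antisense genes 168, small RNA host genes 47 and divergent genes 16, with 228 under other names. Regions of host genes were open in all 40 libraries in 26 of 47 cases (55.3%), close to the 119 of 228 under other names (52.2%). The share was 42.9% over all members and 40.5% for genes with an identifier only. Inside the body of a coding gene lay 348 members (15.7%), among them 78 of the 168 antisense ones. The median distance was 209 bp from the lncRNA start and 37.8 kb from the nearest coding start. At the edges of the definition stood ENSG00000289386 with a midpoint 1000 bp from its start and ENSG00000289075 at 5.0 kb from a coding start of IRX2, and both were open in all 40 libraries.

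Around the summit, the members again lay between the other groups in sequence. The median GC content of the 201-base windows was 55.7%, against 65.2% in coding promoters and 48.3% in distal regions, with a median of 5, 16 and 2 CpG dinucleotides. Of the letters searched, the SP/KLF motif GGGCGG was present in 26.5% of members, 52.6% of coding promoters, 7.17% of distal regions and 19.3% of all regions. The AP-1 motif TGANTCA stood in 14.3% of members, 6.43% of coding promoters, 20.3% of distal regions and 16.3% of all regions. CCAAT, the CCAAT box, was found in 22.3% of members and 23.5% of all regions, and the TATA box TATAAA in 5.16% and 8.30%. Shares for the remaining motifs in members and in all regions were 12.6% and 13.9% for the TEAD motif CATTCC, 7.65% and 8.93% for the GATA motif AGATAA, and 6.38% and 8.50% for the FOX motif TGTTTAC. They were 6.15% and 5.42% for the CTCF motif CCACNAGG, 5.11% and 3.84% for the ETS motif CCGGAAG, 2.53% and 3.87% for the GRHL motif AACCNGTT, 1.18% and 0.501% for the NRF1 motif GCGCATGCG, and 0.181% and 0.524% for the YY1 motif AAGATGGCG. A match describes letters and not a bound site. Members open in all 40 libraries held GGGCGG in 36.2% of windows and those open in 39 or fewer in 19.2%.

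Among members open in all 40 libraries, the median rank of the peak within its own list, averaged over libraries, was at the 72.6 percentile, against 80.9 for coding promoters open in all 40. The 6 highest lay at NEAT1, LINC00963, ENSG00000261065, LINC01348, NPEPPSP1 and TALAM1, each with a median percentile of 99.9. NEAT1, the scaffold of paraspeckles, also had the widest region, of 15834 bp (chr11:65415873-65431706), followed by LINC00963 with 13067 bp and the region of MALAT1 at chr11:65500032-65506039 with 6008 bp. TALAM1 is transcribed antisense to MALAT1, so their regions share a locus.

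The number of lncRNA promoters open in a library was then compared by line, treatment and time. BT474 libraries had 1691 ± 61.3 open members (SD, n = 20; lowest 1594, median 1670, highest 1799) and BT474R libraries 1470 ± 173 (SD, n = 20; lowest 1069, median 1473, highest 1689). The ranges overlapped. As a share of the 2210 this was 76.5% ± 2.77 and 66.5% ± 7.84, beside 68.3% ± 3.35 and 62.2% ± 9.36 of all consensus regions and 87.3% ± 1.44 and 79.9% ± 6 of coding promoters (SD, n = 20 each). Open members followed the number of peaks in the list, with Pearson's r of 0.903 over the 20 BT474 libraries and 0.990 over the 20 BT474R libraries, which share lines, treatments and processing. Members made up 3.46% ± 0.0693 of the open regions in BT474 and 3.32% ± 0.126 in BT474R (SD, n = 20 each). Of the members open in either library of a group, a median of 91.5% were open in both in BT474 and 90.8% in BT474R (10 pairs each).

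In BT474, the baseline libraries had 1670 and 1607 open members. At 1 h the control libraries had 1629 and 1627, the EGF libraries 1726 and 1651 and the HRG libraries 1594 and 1665. At 12 h the numbers were 1646 and 1645 for control, 1742 and 1749 for EGF and 1763 and 1750 for HRG. Both ligands lay above both controls at 12 h, whereas at 1 h this held for EGF only. At 24 h, control had 1735 and 1669, EGF 1771 and 1799 and HRG 1738 and 1651, so EGF remained above control and HRG overlapped it.

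BT474R moved over a wider range. Its baseline libraries had 1608 and 1360 open members. At 1 h there were 1652 and 1626 in control, 1577 and 1490 in EGF and 1592 and 1676 in HRG. EGF lay below both controls at that time, the opposite of BT474. At 12 h there were 1069 and 1300 in control, 1258 and 1227 in EGF and 1442 and 1364 in HRG. The control and EGF libraries of that time were the lowest of the study, and HRG alone lay above both controls. At 24 h there were 1347 and 1456 in control, 1633 and 1595 in EGF and 1689 and 1432 in HRG. Here EGF lay above both controls and HRG overlapped them. Within 1 time point, 2 libraries against 2 cannot give an exact permutation p under 0.333, so the times were tested together, with libraries exchanged only within a time (two-sided, adjusted over the 4 comparisons, added after the data had been seen). EGF libraries of BT474 had 81.2 more open members than controls on average, above both controls at 3 of 3 times (exact permutation p = 0.00926, the smallest these arrangements can give, adjusted p = 0.037). Without either control library at 1 h or either EGF library at 24 h this did not pass (exact permutation, adjusted p = 0.0741 each). With 1 library out fewer arrangements are possible, so this cannot show that the difference rests on those libraries. The difference was 68.7 to 93.7 over the 12 libraries left out in turn, and 8 of the 12 settings passed. The mean differences for HRG in BT474, EGF in BT474R and HRG in BT474R were 35.0, 55.0 and 124.2, and none passed (exact permutation, adjusted p = 0.321, 0.389 and 0.185). With an equal number of top peaks from each library, which left 1561 members, the EGF difference in BT474 was 6.7 (exact permutation, adjusted p = 0.519), and the other 3 were 12.2, 4.5 and 15.3. The greater number of open members with EGF in BT474 was thus not seen once lists were of equal length.

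**Figure D2:**
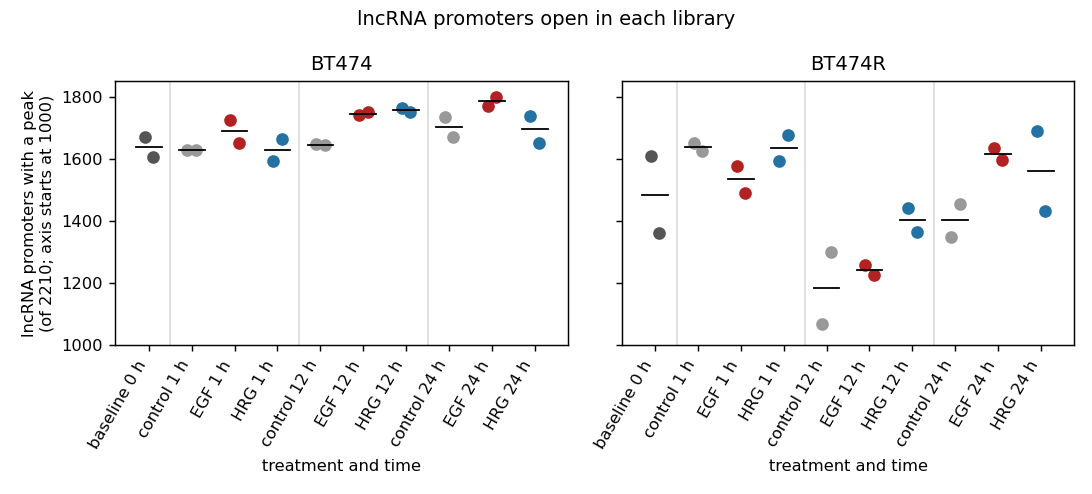
Number of the 2210 lncRNA promoters with a peak (y axis, starting at 1000) in each of the 40 libraries (dots), by treatment and time (x axis), with the mean of the 2 libraries as a line. BT474 libraries lie between 1594 and 1799, and the BT474R libraries at 12 h fall to between 1069 and 1442.

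Within each time point, the members open in exactly 2 of the 4 libraries compared were counted, and the share open in both ligand libraries and neither control was set beside the share of all such regions. For EGF in BT474, 56 of 107 members were open with EGF only at 1 h and 22 with control only, beside 43.8% and 18.3% of all regions. At 12 h these were 65 and 12 of 114 (57.1% and 5.53% of all regions), and at 24 h 68 and 26 of 121 (55.6% and 18.3%). For HRG in BT474, 54 and 42 of 136 members split this way at 1 h (37.2% and 36.7% of all regions). There were 88 and 22 of 145 at 12 h (63.2% and 14.7%) and 60 and 46 of 156 at 24 h (44.9% and 26.4%). In BT474 the ligand side was thus the larger at every time, although by little for HRG at 1 h.

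BT474R gave a different order over time. With EGF, 20 of 115 members were open in the ligand libraries only at 1 h and 74 in the control libraries only, beside 9.45% and 65.6% of all regions. The direction turned at 12 h, with 40 and 12 of 113 (44.4% and 16.3% of all regions), and at 24 h 148 of 178 were open with EGF only and 5 with control only (78.7% and 8.62%). With HRG the split was 17 and 18 of 71 at 1 h (16.6% and 24.6%), 84 and 0 of 115 at 12 h (72.5% and 0.547%) and 51 and 0 of 112 at 24 h (42.2% and 0.693%). The EGF lists of BT474R held 51503 and 47474 peaks at 1 h, against 56494 and 54256 in control. At 12 h it was 38205 and 37476 against 32479 and 40331, and at 24 h 52126 and 51080 against 41833 and 45799. The HRG lists held 52162 and 56334 at 1 h, 45808 and 42604 at 12 h and 55289 and 44351 at 24 h. Whether the shares followed from these numbers was not tested. The split was then taken with an equal number of top peaks from each library. For EGF in BT474R it was 25 and 24 of 68 at 1 h (36.1% and 33.2% of all regions). At 12 and 24 h it was 43 and 26 of 95 (46.7% and 33.1%) and 61 and 44 of 128 (51.3% and 35.9%). The control side was thus no longer the larger at 1 h. For HRG in BT474R it was 15 and 13 of 63 at 1 h (25.7% and 21.3%). At 12 and 24 h it was 28 and 19 of 82 (43.4% and 24.2%) and 23 and 10 of 79 (23.6% and 16.6%). In BT474 the equal lists gave 35 and 17 of 76 for EGF at 1 h (38.4% and 33.5%). At 12 and 24 h they gave 41 and 23 of 91 (39.4% and 25.1%) and 47 and 45 of 104 (39.5% and 39.9%). For HRG they gave 40 and 27 of 88 at 1 h (40.9% and 37.6%). At 12 and 24 h it was 59 and 27 of 105 (47.5% and 33.4%) and 50 and 36 of 106 (43.5% and 33.8%). Among members the ligand side was then the larger at each time in both lines. The margin was 1 or 2 members for EGF and HRG at 1 h in BT474R and for EGF at 24 h in BT474. All regions had the same order except for EGF at 24 h in BT474, so the order was not particular to the members.

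To find which lncRNA promoters changed with a ligand across the 3 times, open libraries were counted as 6 against 6 and compared by Fisher's exact test, two-sided, over all consensus regions open in 5 to 7 of the 12, the numbers at which the test can fall under 0.05. For EGF in BT474, 117 of the 2210 members could be tested. Of the rest, 1408 were open in all 12 libraries, 220 in none and 465 in other numbers. Gained with EGF were 20 members (17.1% of those tested), beside 18.3% of 4492 regions, and 1 was lost, beside 0.690%. After Benjamini-Hochberg adjustment over all regions tested, 9 members passed 0.05 (7.69%), beside 6.46% of regions. The members were gained in about the share seen for all regions. The called peaks were low ones. With a score minimum of 400, or with an equal number of top peaks from each library, 24 members (23 gained, 1 lost) and 21 members (17 gained, 4 lost) were called, and 0 of the 21 called here were among them. Over all regions, 622 were gained and 31 lost with the score minimum, and 353 and 133 with equal peak numbers.

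Of the 9 EGF gains with 6 of 6 against 0 of 6, 5 were named by rank. ENSG00000271980 (530 bp from its start and 5.7 kb from CCT5) was open in 6 of 6 EGF-BT474 and 0 of 6 control-BT474 libraries (Fisher's exact test, p = 0.00216, adjusted p = 0.0335), in 0 of 2 baseline libraries, and in 20 of 20 BT474R libraries whatever the treatment. ENSG00000290808 (50.4 kb from ANKRD10) had the same 6 against 0. Its peak score, the area under the significance curve that the peak caller gave, was 374 and 269 at 1 h, 444 and 592 at 12 h and 580 and 603 at 24 h of EGF. The region had no peak in any of the 8 baseline and control libraries of BT474, which for the controls followed from the choice of 6 against 0. A score rises with the reads of its library, so scores are given as levels only.

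LINC01585 (chr15:90660536-90660955, 6 bp from its start) was open in 6 of 6 EGF-BT474 libraries with scores of 251 to 312 and in 0 of 6 controls, and in BT474R in 18 of 20. ENSG00000248802 (chr4:128601329-128601778) had 6 against 0 in BT474 and 16 of 20 in BT474R. ENSG00000285709 (chrX:39908146-39908671), 147.8 kb from BCOR, had 6 against 0 and 16 of 20. All 3 were thus open in most libraries of the resistant clone. A further member of the fixed lists was the MIR29B2CHG region at chr1:207818895-207819268, in a host transcript of the miRNA cluster its name gives. It was open in 6 of 6 EGF-BT474 and 0 of 6 control-BT474 libraries with scores of 243 to 283, and in 1 of 2 baseline libraries, while another region of the same gene at chr1:207868168-207869668 was open in all 40 libraries. The CASC15 region at chr6:22236669-22237044 had 5 against 0 (p = 0.0152, adjusted p = 0.0796 by the exact test), which does not pass after adjustment. CASC15 is a long transcript beside SOX4 that was studied first in neuroblastoma.

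The 1 member lost with EGF in BT474 was LINC00630 (chrX:102768988-102769422), open in 6 of 6 control and 1 of 6 EGF libraries (Fisher's exact test, p = 0.0152, adjusted p = 0.0796). It was also open in 5 of 20 BT474R libraries.

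HRG in BT474 was tested in the same way. Of 126 members tested, 26 were gained (20.6%) beside 20% of 4754 regions, and 4 were lost (3.17%) beside 4.69%. After adjustment 12 members passed (9.52%), beside 8.98% of regions. With the score minimum or equal peak numbers, 0 of these 30 were called again. EGF and HRG were compared with the same control libraries, so values are given side by side and no overlap is counted. ENSG00000290808 was open in 6 of 6 HRG-BT474 libraries with scores of 294 and 373 at 1 h, 620 and 716 at 12 h and 631 and 751 at 24 h (adjusted p = 0.0241, Fisher's exact test over all regions). ENSG00000271980, LINC01585 and the MIR29B2CHG region also had 6 against 0 with HRG.

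LINC02868 (chr1:116693571-116694404, 26.2 kb from IGSF3) was open in 6 of 6 HRG-BT474 and 0 of 6 control libraries (exact p = 0.00216, adjusted p = 0.0241), and EGF-BT474 had it in 4 of 6, in neither library at 1 h and in all at 12 and 24 h. LINC02846 (chr9:136108405-136108764, 9.7 kb from TMEM250) had 6 of 6 with HRG, 0 of 6 in control and 3 of 6 with EGF. In BT474R these were open in 20 and 19 of 20 libraries. The LINC00511 region at chr17:72422865-72423470, in a long transcript near SOX9 that is often raised in breast tumours, was open in 6 of 6 HRG-BT474 and 0 of 6 control-BT474 libraries. EGF-BT474 had it in 4 of 6, again in neither library at 1 h. At LINC-PINT, a transcript known as a target of p53, the region chr7:130912100-130912458, 834 bp from an annotated start, had 6 with HRG against 1 (exact p = 0.0152, adjusted p = 0.0615). Another member region of the gene, chr7:130941381-130941869, was open in all 40 libraries. Of the 2 regions of this gene, the one open everywhere could not change by presence.

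Lost with HRG in BT474 were ENSG00000272915 (chr7:128264422-128264915), with 0 of 6 HRG and 5 of 6 control libraries, and MIOS-DT (chr7:7554762-7555170), LHFPL3-AS2 (chr7:104927168-104927870) and LINC01414 (chr8:64240004-64240696), each with 1 of 6 against 6 of 6. All 4 had an exact p of 0.0152 and an adjusted p of 0.0615. In EGF-BT474 libraries MIOS-DT was open in 5 of 6, LHFPL3-AS2 in 5, ENSG00000272915 in 3 and LINC01414 in 2.

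**Figure D3:**
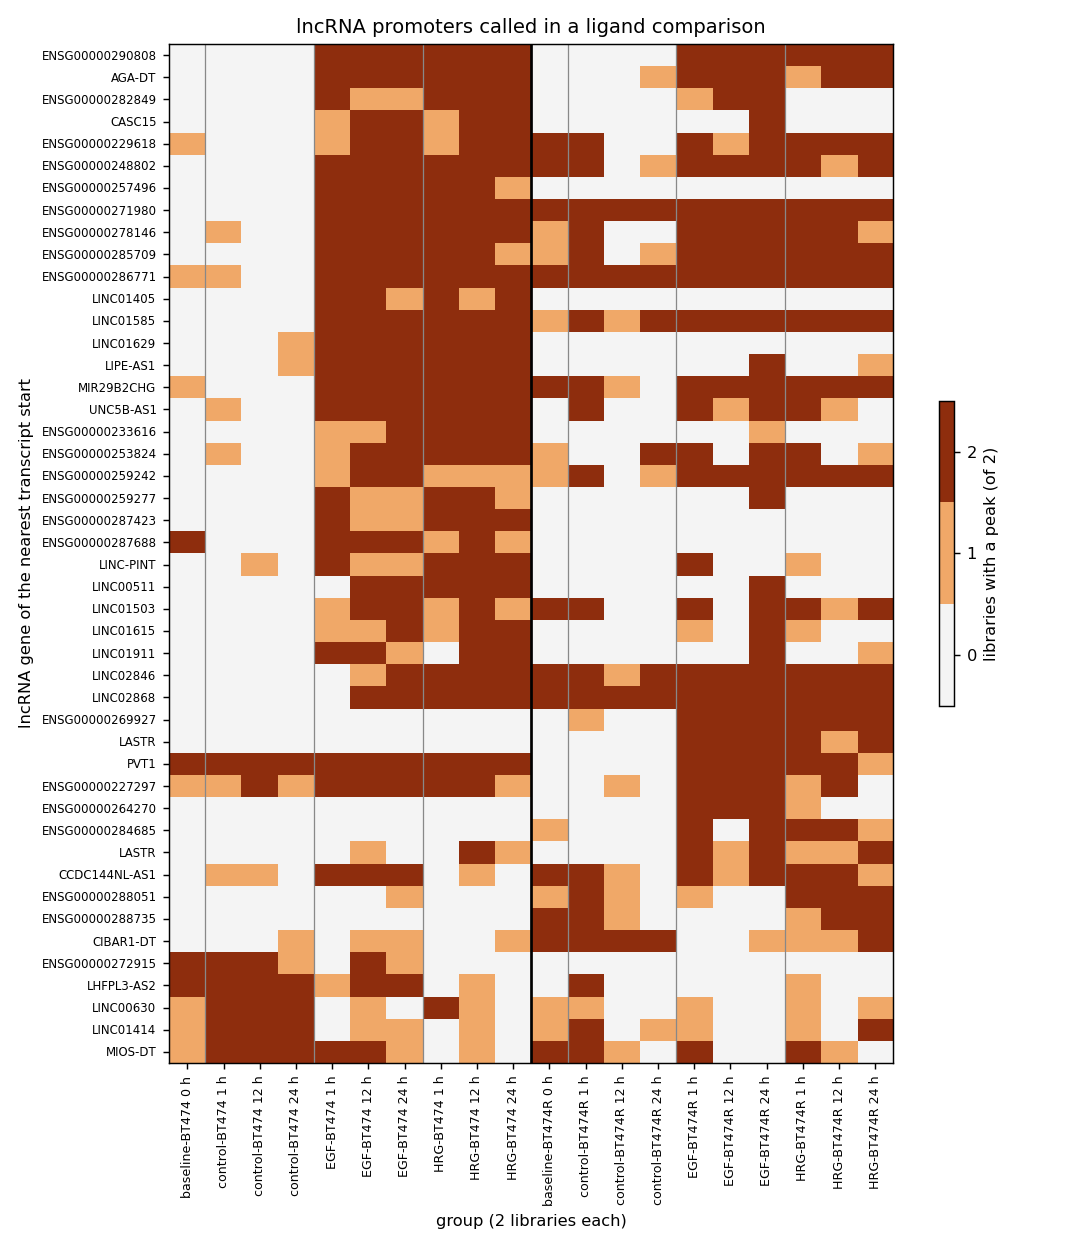
Libraries with a peak (colour, 0 to 2) in each of the 20 groups (x axis) for the 46 lncRNA promoters called at an unadjusted p under 0.05 in any comparison of ligand with control or of EGF with HRG, each row named by the gene of its nearest start (y axis). ENSG00000290808, in the top row, is open in 2 of 2 libraries of every ligand group and 0 of 2 of every baseline and control group in both lines.

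BT474R showed fewer calls. With EGF, 9 of 181 members tested were gained (4.97%) beside 3.67% of 6819 regions, and 1 was lost (0.552%) beside 0.411%. None passed after adjustment by the exact test over all regions, where 10 had an unadjusted p under 0.05. With HRG, 5 of 161 were gained (3.11%) beside 2.31% of 6415 regions. None was lost beside 0% of regions, and again none passed after adjustment, with 5 under 0.05 unadjusted. Of the 10 and 5 called, 0 were called again with the score minimum or equal peak numbers, where EGF had 2 and 18 calls (10 gained and 8 lost among the 18) and HRG 3 and 6. Over all regions, EGF had 108 gained and 13 lost with the score minimum, and 506 and 218 with equal peak numbers. HRG had 57 and 0, and 133 and 31. With equal peak numbers, 55.6% of the members called with EGF were gained, beside 69.9% of the regions called. Whether the lines differ in these numbers was not tested.

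ENSG00000290808 had 6 of 6 against 0 of 6 under each ligand in each line, and how many of all regions did so was not counted. In BT474R its scores were 396 and 239 at 1 h, 590 and 548 at 12 h and 905 and 932 at 24 h of EGF, and 204 and 322, 506 and 474, and 626 and 594 with HRG (Fisher's exact test, p = 0.00216 for each ligand, adjusted p = 0.217 and 0.579). The LASTR region at chr10:5632450-5632815, 66 bp from a start of this transcript, was open in 6 of 6 EGF-BT474R, 5 of 6 HRG-BT474R and 0 of 6 control-BT474R libraries, in neither baseline library and in 0 of 20 BT474 libraries. Its EGF scores were 238 and 269 at 1 h, 258 and 245 at 12 h and 459 and 435 at 24 h. A further LASTR region farther along the gene was called with EGF, with 5 against 0. HRG-BT474R had it in 4 of 6 libraries, too few against 0 of 6 to be tested. PVT1, the long transcript beside MYC, had the region chr8:127994827-127995219 open in 6 of 6 EGF-BT474R, 5 of 6 HRG-BT474R and 0 of 6 control-BT474R libraries, and in 20 of 20 BT474 libraries.

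Further members called in BT474R had other combinations of libraries. ENSG00000264270 (chr17:75683656-75684017, inside SAP30BP) was open in 6 of 6 EGF, 1 of 6 HRG and 0 of 6 control libraries, at a median percentile of 5.94 where open. ENSG00000282849 (chr1:200483495-200483801) had 5, 0 and 0 of 6 for EGF, HRG and control. ENSG00000269927 (chr14:71143415-71143911) had 6, 6 and 1, and ENSG00000284685 (chr16:29157071-29157340) 4, 5 and 0. Lost with EGF was CIBAR1-DT (chr8:93293439-93293761), with 1 against 6 of 6 controls.

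Compared directly, EGF and HRG differed at few members. In BT474, of 126 members tested, 1 was higher with EGF, CCDC144NL-AS1 (chr17:20952257-20952553) with 6 against 1 of 6 libraries, beside 0.668% of 4641 regions, and 0 with HRG beside 0.0862%. In BT474R, of 135 tested, ENSG00000282849 (5 against 0) and ENSG00000264270 (6 against 1) were higher with EGF, beside 0.167% of 5979 regions. ENSG00000288735 (chr8:29318864-29319614, 0 against 5) and ENSG00000288051 (chr7:155412554-155412942, 1 against 6) were higher with HRG, beside 0.953%. Every one had an exact p of 0.0152, and none passed after adjustment over all regions by Fisher's exact test.

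What the gained members shared was read from the sequence, which the calls did not use. In BT474, 13 of 20 members gained with EGF (65.0%) held TGANTCA in the summit window, against 12 of the 96 that could be tested and were not called (12.5%). With HRG it was 19 of 26 (73.1%) against 7 of 96 (7.29%). In BT474R it was 8 of 9 with EGF (88.9%) against 22 of 171 (12.9%), and 4 of 5 with HRG (80%) against 25 of 156 (16.0%). Of all regions gained in those comparisons, 64.9%, 69.8%, 76.8% and 79.1% held it, so the members resembled other gained regions in this. The groups share controls and members, and no test was made on them. In a check chosen after seeing the data, the members gained with the score minimum, which were others, held it in 16 of 23, 20 of 26, 1 of 1 and 2 of 3, and with equal peak numbers in 14 of 17, 21 of 23, 9 of 10 and 2 of 5. Members gained with EGF in BT474 had a median of 1.5 CpG dinucleotides and none of the 20 held CCAAT, against 17.7% of those tested and not called. Of all 824 regions gained there, 22.1% held CCAAT, as did 11.5% of the members gained with HRG. The gained members without an AP-1 motif in the window included LINC02868, LINC02846 and the PVT1 region.

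**Figure D4:**
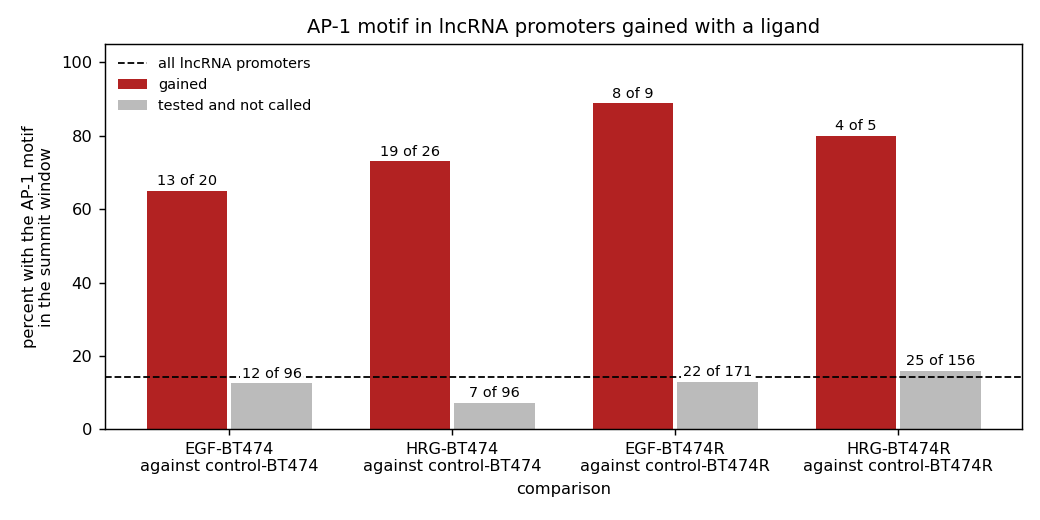
Percent of lncRNA promoters with the AP-1 motif in the 201-base summit window (y axis) among members gained with a ligand (red) and members tested and not called (grey) in each of the 4 comparisons (x axis), with numbers above the bars. The dashed line is the 14.3% of all 2210 members, and gained members reach 65.0% to 88.9%.

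Gained members differed in what they were like in the other line. Of the 20 gained with EGF in BT474, 2 were open in all 20 BT474R libraries and 4 in none, with a median of 12.5. Of the 26 gained with HRG, 3 were open in all 20 and 4 in none, with a median of 10. Before treatment, 16 of the 20 and 23 of the 26 had no peak in either BT474 baseline library. Gained members were chosen for few open control libraries, and the same share over all gained regions was not counted. The 9 gained with EGF in BT474R were open in a median of 10 BT474 libraries, 1 in all 20 and 3 in none, and all 9 were without a peak in the BT474R baseline libraries. Their peaks were low in their lists, at median percentiles of 18.0, 22.9 and 23 in the libraries of the gaining arm.

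The lines were compared next, with all treatments and times together. Over 20 against 20 libraries, 895 members were open in 5 to 35 libraries and could be tested, 949 were open in all 40 and 366 in other numbers. At an adjusted p under 0.05 (Fisher's exact test, two-sided, Benjamini-Hochberg over 32683 regions), 199 members were higher in BT474R (22.2%), beside 27.2% of regions, and 478 were higher in BT474 (53.4%), beside 44.6%. Fewer peaks were called in BT474R, with a median of 46641 against 51357 in BT474. With an equal number of top peaks from each library, 185 members were higher in BT474R and 274 in BT474, so 40.3% of the members called were higher in BT474R, against 29.4% with all peaks. Over all regions it was 7034 and 7447 (48.6%), against 37.9% with all peaks. Of the members, 15 (0.679%) were open in all 20 BT474R and no BT474 library, beside 0.957% of all regions, and 83 (3.76%) in all 20 BT474 and no BT474R library, beside 2.52%.

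**Figure D5:**
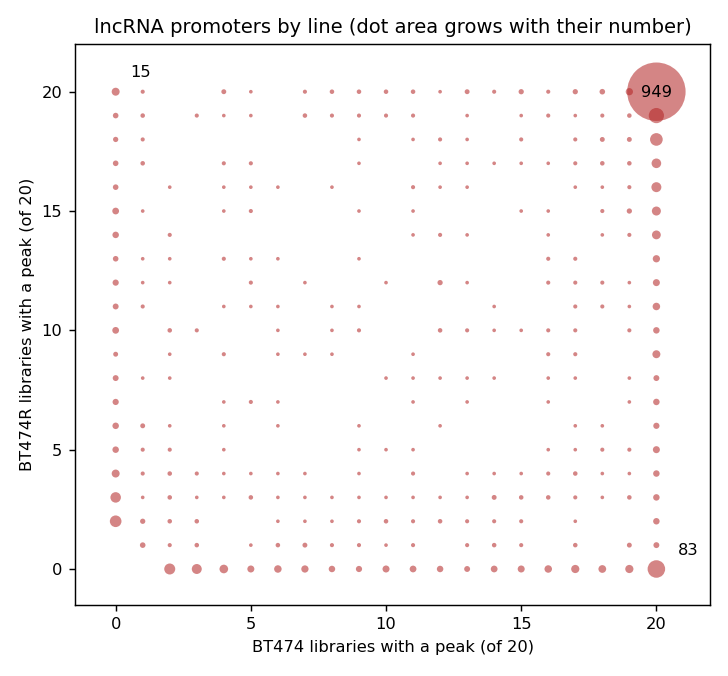
Each dot stands for the lncRNA promoters open in a given number of BT474 (x axis) and BT474R (y axis) libraries of 20, with its area growing with their number. The corner at 20 and 20 holds 949, that at 20 and 0 holds 83 and that at 0 and 20 holds 15.

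Of the members open in all BT474R and no BT474 libraries, 8 were named by rank. LINC03040 (chr6:43999658-44000939) had 20 of 20 against 0 of 20 libraries (Fisher's exact test, adjusted p = 1.91e-10) and a median percentile of 84.6. Its scores in BT474R ran from 835 in a control library at 12 h to 2512 in an EGF library at 24 h. ENSG00000234481 (chr1:36769444-36771082, 83.4 kb from GRIK3) had a median percentile of 86.6. FIRRE, an X-linked RNA that organises nuclear contacts, had 2 member regions that moved in opposite ways. The region chrX:131830519-131831147, 29 bp from a start, was open in 0 BT474 and 20 BT474R libraries with scores of 395 to 935. The region chrX:131793101-131793571 was open in 20 BT474 and 6 BT474R libraries (adjusted p = 1.19e-05, Fisher's exact test). LINC03054, ENSG00000203266, LINC02363, SLC8A1-AS1 and ENSG00000289221 were the others named by rank, at median percentiles of 52.2 to 64.0.

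On the BT474 side, ENSG00000289332 (chr13:23714901-23716698) had a median percentile of 94.3, LINC00992 (chr5:117454724-117456220) one of 88.4 and ENSG00000258216 (chr12:89919384-89919946) one of 81.8. LINC01637, LINC01511, ZNF790-AS1, ENSG00000229960 and ENSG00000249574 had 73.6 to 82.0. All 8 were open in 20 BT474 and 0 BT474R libraries (adjusted p = 1.91e-10, Fisher's exact test). Their peaks stood in the upper part of the BT474 lists and in no list of the clone.

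Members higher in BT474R were poorer in GC motifs than those higher in BT474. The SP/KLF motif stood in 11.6% of the former and 26.2% of the latter, against 26.5% of all members, with median GC contents of 50.7% and 55.2%. Over all regions higher in BT474R and in BT474 it stood in 7.54% and 13.9%, so this order was not particular to the members. AP-1 stood in 14.6% and 11.1% of the members and in 16.2% and 15.8% of all such regions. By chromosome, a view chosen after the values had been seen, 1 of 50 members tested on chromosome 17 was higher in BT474R and 38 in BT474, beside 25.2% and 48.0% of regions on that chromosome. On chromosome 21 it was 10 and 8 of 23 (49.3% and 20.5% of regions), and on chromosome 1 26 and 23 of 68 (40.6% and 27.9%).

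Of 13 nuclear and scaffold lncRNAs on a fixed list, 12 matched genes that the annotation types as lncRNA and could have a member region, and 7 had member regions, 13 in all, of which 6 were open in all 40 libraries. NEAT1, NORAD (a cytoplasmic RNA that binds Pumilio proteins) and MALAT1 (a nuclear speckle RNA) had regions open in every library, with median percentiles of 99.9 at NEAT1, 79.7 at NORAD and 99.2 at the start of MALAT1. A small MALAT1 region downstream, chr11:65498840-65499416, was open in 20 BT474 and 9 BT474R libraries (adjusted p = 3.57e-04 by the exact test). KCNQ1OT1, the imprinted antisense RNA in an intron of KCNQ1, had a region 104 bp from its start open in all 40 and a flanking region, chr11:2699182-2699593, in 20 BT474 and 3 BT474R libraries (adjusted p = 1.46e-07, exact test). On this list 1 region was higher in BT474R and 4 in BT474, beside 9% and 21.6% of all 2210 members. Its 1 ligand call was the LINC-PINT region above.

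Small nucleolar RNA host genes had the largest share of constant regions of the 4 lists. Of 28 on the list, all typed as lncRNA, 13 had member regions, 17 in all, with 10 open in all 40 libraries. On this list 1 region was higher in each line, beside 9% of all 2210 members in BT474R and 21.6% in BT474. In either line 0 of the list were called with a ligand (Fisher's exact test, unadjusted). The 10 open in all 40 libraries could not be called by presence. Of all 2210 members, only 21 and 30 were called with EGF and HRG in BT474, and 10 and 5 in BT474R. Calls were so few among all members that the 0 says nothing particular to this list. SNHG15 had the highest rank, at a median percentile of 94.0, and SNHG8, SNHG12, SNHG21, SNHG25 and SNHG30 lay between 76.0 and 88.3. The region higher in BT474R lay at SNHG11 (chr20:38448248-38448676), open in 0 BT474 and 6 BT474R libraries (adjusted p = 0.0287, Fisher's exact test), while another SNHG11 region, chr20:38446485-38446864, was open in 17 and 13. Scores of the former were 204 to 291 where open, near the list minimum of 200. The region higher in BT474 was that of SNHG6 (chr8:66924499-66925853). It was open in 20 of 20 BT474 libraries with scores of 733 to 1790. In BT474R it was open in all 8 libraries of 0 and 1 h, with scores of 200 to 357, and in 0 of the 12 libraries of 12 and 24 h, whatever the ligand (adjusted p = 1.25e-04 between the lines, Fisher's exact test).

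That pattern over time was then counted for all members, a count chosen after SNHG6 had been seen. In BT474R, 3 of the 861 members open in 1 to 19 of 20 libraries were open in all 8 early and none of the 12 late libraries, namely SNHG6, LINC01781 and ENSG00000234810, beside 0.395% of 33414 such regions. None had the reverse pattern, beside 0% of regions. In BT474, 0 of 655 members were early only and 0 late only, beside 0.00404% and 0.0565% of 24767 regions.

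Among 29 miRNA host genes, 16 had member regions, 29 in all, of which 14 were open in all 40 libraries. MIR17HG, which carries an oncogenic miRNA cluster, had a median percentile of 95.4, DLEU2 98.0, MIRLET7A1HG 96.8 and MIR9-1HG 99.6 at their highest regions. MIR181A2HG, inside NR6A1, had a pair of regions that changed places between the lines. The region chr9:124658192-124658484 was open in 0 BT474 and 16 BT474R libraries (adjusted p = 7.41e-07), and chr9:124659109-124659671 in 19 and 0 (adjusted p = 2.64e-09, Fisher's exact test). MIR99AHG showed the same at starts farther apart, with chr21:16476484-16476769 in 0 and 8 libraries (adjusted p = 5.85e-03) and chr21:16588432-16588769 in 17 and 0 (adjusted p = 1.46e-07, exact test), while its region at chr21:16419116-16419717 was open in all 40. In this list 2 regions were higher in BT474R and 6 in BT474, beside 9% and 21.6% of all 2210 members. The MIR29B2CHG region was its only region called with a ligand, with both EGF and HRG in BT474.

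Of 33 lncRNAs linked to breast cancer, 30 matched genes typed as lncRNA, and 14 had member regions, 37 in all, with 12 open in all 40 libraries. DSCAM-AS1, an oestrogen receptor target of luminal tumours, was open in all 40 at a median percentile of 59.1, as were LINC00472, AGAP2-AS1 and PCAT7. One region of the list was higher in BT474R and 13 in BT474, beside 9% and 21.6% of all 2210 members. LINC01016 (chr6:33896815-33897372) was open in 17 BT474 and 1 BT474R libraries (adjusted p = 1.89e-06), LUCAT1 (chr5:91314289-91314643), a stress-responsive transcript, in 15 and 3 (adjusted p = 7.90e-04, exact test).

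UCA1 (chr19:15828120-15829105, 33 bp from its start) was open in 20 BT474 and 9 BT474R libraries (adjusted p = 3.57e-04, Fisher's exact test). In BT474 its presence could not change, but its scores at 1 h were 547 and 507 in control, 950 and 1085 with HRG and 861 and 960 with EGF, at 12 h 363 and 400, 492 and 358, and 287 and 381, and at 24 h 217 and 358, 361 and 392, and 285 and 430. Both ligands lay above both controls at 1 h and HRG did at 24 h. These scores were looked at after their values were seen, and their scale rests on each library's own depth.

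LINC00511 had the most member regions of any gene, 13 by nearest start, of which 3 were open in all 40 libraries. Of its 13 regions, 4 were higher in BT474 and 0 in BT474R, beside 21.6% and 9% of all 2210 members. Its region chr17:72501379-72503366, of 1988 bp, had a median percentile of 70, and chr17:72617892-72618592 was open in 20 BT474 and 5 BT474R libraries (adjusted p = 3.16e-06, exact test). PVT1 had 8 regions, 3 of them open in all 40 and 2 higher in BT474. The PVT1 region chr8:127853860-127854931 was open in 20 BT474 libraries with scores of 1119 to 1737 and in 10 BT474R libraries with scores of 221 to 437 (adjusted p = 9.53e-04, exact test). CASC15 had 4 regions, 1 open in all 40. Of its others, chr6:21883596-21884440 was open in 20 BT474 and 0 BT474R libraries (adjusted p = 1.91e-10), and chr6:22145351-22145615 in 0 and 15 (adjusted p = 3.16e-06, exact test), so starts of 1 gene differed in opposite directions. DRAIC, named after its values were seen for its 7 regions, had 5 open in all 40 and 0 called between the lines.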

How the data were processed

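ATAC-seq peak lists of 40 libraries were used. The labels and methods state that the authors removed adapter sequence (Trim Galore 0.6.6), mapped reads to GRCh38.p13 (hg38) with BBMap and called peaks in each library with Genrich, leaving out mitochondrial and blacklisted reads. The Genrich options were not given in the sources used here. The deposited score of a peak is the area under its significance curve, at least 200 in every list, and the deposited −log10 p and q values at the summit were not tested. None of these is scaled across libraries, and longer or deeper sequencing raises them and the number of peaks. The authors compared read counts with a count model, which peak lists do not allow, so presence was tested.

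Peaks on chromosomes 1 to 22 and X were merged at an overlap of 1 bp and regions in 2 or more libraries were kept. Transcript starts and gene types came from GENCODE release 44. Groups came from the titles and cell lines in the labels. Fisher's exact test, two-sided, compared the number of libraries with a peak over every region that could reach 0.05, with Benjamini-Hochberg adjustment over all regions tested. Ligand comparisons were called at an unadjusted p and the lines at an adjusted p under 0.05. The number of open members was tested against control by exact permutation of libraries within time points. A percentile is the rank of a peak by score within its own list. Named members were those of 4 gene lists and, within each comparison, up to 5 called members a direction (8 between the lines) by smallest p and then highest mean percentile, with the 6 highest-ranked and 3 widest members and those at the edges of the definition. The members and lists were chosen with earlier results of these data known. Alternatives were a score minimum of 400, the top 32479 peaks of each library, other region definitions, strata and each library left out. The calling step was tested on simulated data. Python 3.11.15, numpy 2.4.6, scipy 1.17.1 and matplotlib 3.10.9 were used. A marker gene and some sequence windows are not reported here.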

Additional observations from a re-analysis of the deposited data

Results flagged for a closer look

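The difference between EGF and control at 1 h in the mean number of open lncRNA promoters had opposite signs in the lines. It was 60.5 in BT474, where both EGF libraries lay above both control libraries, and -105.5 in BT474R, where both lay below. With an equal number of top peaks from each library it was 30.0 and -6.5. The difference between the lines was not tested, and the numbers of peaks in the lists moved with the numbers of open members. No library stood apart within the 6 treatment arms checked for a single outlying value.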

How the results depend on the processing

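Presence of a peak depends on the depth of each library, which is unknown, and 6 libraries against 6 pool 3 times. Peaks near the score threshold decided the ligand calls. Some line calls of list members, such as those at MALAT1, SNHG11, LINC01016 and LUCAT1, also rest on scores near it. With a score of at least 400, calls were 2 for EGF and 3 for HRG in BT474R and 0 for EGF against HRG in either line. Over all regions, EGF against HRG then had 9 and 3 in BT474 and 2 and 36 in BT474R. With equal peak numbers, EGF in BT474R had 18 calls and EGF against HRG in BT474 had 0. The latter was also 0 with midpoints within 500 bp. With peaks covering at least 50% of a region, EGF and HRG in BT474R had 16 and 9 calls, and open shares were 70.7% in BT474 and 58.0% in BT474R. Over all regions, 323 were gained and 38 lost with EGF in BT474R, and 210 and 1 with HRG. With regions in 4 or more libraries, the BT474 share was 81.0%. Baseline and control libraries alone gave 422 line calls (124 higher in BT474R, 298 in BT474). The cause was not tested, though fewer libraries entered the last. All 16 line members named by rank were called under each of these settings. None of the members called with a ligand was called again at the score minimum or with equal peak numbers. Over all regions, EGF against HRG changed its balance with equal peak numbers: 31 and 4 regions in BT474 became 7 and 11, and 10 and 57 in BT474R became 68 and 51. In 2 of the splits by time point, EGF and HRG at 1 h in BT474R, members open with the ligand only minus those open with control only turned from -54 to 1 and from -1 to 2. The difference of EGF from control in open members in BT474 was 6.7 with equal peak numbers. The cause was not tested. Without 1 library it was 68.7 to 93.7, with an exact permutation adjusted p of 0.0741 without either control library at 1 h or either EGF library at 24 h. Fewer arrangements are possible with 1 library out.

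Leaving out 1 library gave 23 to 33 calls for EGF and 31 to 46 for HRG in BT474, 10 to 22 and 5 to 19 in BT474R, 1 to 4 and 4 to 8 for EGF against HRG in BT474 and BT474R, and 693 to 714 between the lines. Counts rose partly because 4 of 5 against 0 of 6 libraries passes the exact test (p = 0.0152) and 4 of 6 against 0 of 6 does not (p = 0.0606). EGF in BT474 moved over 1.5 times without EGF 1 h replicate 2 (32), EGF 12 h replicate 1 (33) or control 1 h replicate 2 (32), and HRG in BT474 without HRG 1 h replicate 1 (46). In BT474R this held without control 1 h replicate 1 (EGF 22, HRG 19), control 1 h replicate 2 (EGF 21, HRG 18) or HRG 12 h replicate 2 (HRG 8, EGF against HRG 8). EGF against HRG in BT474, with 1 call, had 2 to 4 without any of 9 libraries. With a replicate block the counts were 21, 30, 10, 5, 1, 4 and 679, in the order above. Samples with the same number did not deviate together as a rule. Over 45 pairs of groups a line, the median correlation was -0.0038 in BT474 (lowest -0.0612, highest 0.221, 1 pair over 0.1) and 0.00348 in BT474R (lowest -0.12, highest 0.284, 7 pairs over 0.1), so the numbers were not taken as pairs.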
